A study of Homo sapiens with 8 samples.

Results

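The human mitochondrial genome carries 37 genes: 13 mRNAs for subunits of the respiratory chain and ATP synthase, 2 ribosomal RNAs and 22 transfer RNAs. They were taken as the genes of chromosome M whose symbols begin with MT- in GENCODE release 29 (GRCh38), and all 37 were among the 58395 genes listed in each of the 8 libraries. RNA came from OCI-AML3, an established human line of acute myeloid leukaemia, and was sequenced either from polysome fractions of a sucrose gradient or from the cleared lysate, called input. There were 4 groups of 2 libraries: polysome RNA labelled FBL knockdown, polysome RNA labelled WT, input RNA labelled FBL knockdown and input RNA labelled WT. Per the labels' protocols, cells of the first label had been infected with shFBL and cells of the second with shCT. FBL encodes fibrillarin, a nucleolar enzyme that methylates ribosomal RNA. Every sample held 5000000 cells and had received cycloheximide, which holds ribosomes on their mRNAs, at 100 µg/mL for 15 min. Lysis was in 400 µL of a buffer with the detergent Triton X-100. After the lysate was cleared, 100 µL of it was kept as input and 290 µL was loaded on a gradient of 10% to 50% sucrose that was collected in 14 fractions. The fractions that made up the polysome RNA are not named, and nothing says that libraries with the same label were grown or infected separately. P-values therefore measure only the spread among these libraries, possibly technical. A polysome and an input library with the same label and number were taken as the same lysate.

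Mitochondrial DNA is transcribed from both strands into long precursors, which are cut at the tRNAs that sit between the other genes. The rRNAs and most of the mRNAs receive short poly(A) tails. The mRNAs are translated inside the organelle by mitochondrial ribosomes, which are built on the 2 mitochondrial rRNAs and on imported proteins. Cytosolic polysomes therefore do not read these mRNAs. Their level in a polysome library relative to the input of the same lysate is called carry-over here. The word names the measured ratio only. Whether mitochondrial ribosomes on these mRNAs sedimented into the polysome fractions was not tested.

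Mitochondrial genes lie end to end, which limits what can be counted for some of them. The tRNAs are 59 to 75 nt long, and 18 of the 22 touch or overlap a neighbour, with the other 4 at most 2 nt away. Reads that overlap more than 1 gene are set aside as ambiguous in the usual setting of the counting program, but the setting used for these files is not known. The sequences below show such features and are from the GENCODE release 29 transcripts, on GRCh38, written 5′ to 3′ as DNA. In the first pair, capitals mark the bases that the mRNA shares with the gene after it, 46 for MT-ATP8 (chrM:8366-8572, plus strand) with MT-ATP6 and 7 for MT-ND4L (chrM:10470-10766, plus strand) with MT-ND4. The tRNAs, with no capitals, are the leucine tRNA MT-TL1 (chrM:3230-3304, plus strand), which sits between the large rRNA and the first mRNA, and the tyrosine tRNA MT-TY (chrM:5826-5891, minus strand).
MT-ATP8: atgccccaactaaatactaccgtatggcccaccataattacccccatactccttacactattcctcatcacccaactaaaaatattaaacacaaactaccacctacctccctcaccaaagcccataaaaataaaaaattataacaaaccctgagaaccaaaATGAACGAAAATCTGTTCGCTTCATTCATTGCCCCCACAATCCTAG
MT-ND4L: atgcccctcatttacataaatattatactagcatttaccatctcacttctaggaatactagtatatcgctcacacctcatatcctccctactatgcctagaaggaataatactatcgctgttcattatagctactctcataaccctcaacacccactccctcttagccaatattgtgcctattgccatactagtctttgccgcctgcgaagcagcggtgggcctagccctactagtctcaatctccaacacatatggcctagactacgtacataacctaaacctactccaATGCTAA
MT-TL1: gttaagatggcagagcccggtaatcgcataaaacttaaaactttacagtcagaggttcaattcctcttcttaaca
MT-TY: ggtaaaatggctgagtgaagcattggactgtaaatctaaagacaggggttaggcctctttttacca

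The mRNAs also differ at their annotated 3′ ends. Of the 13 genes as annotated, 6 end in 1 or 2 bases of an incomplete last codon, which the poly(A) tail completes to a stop codon. The other 7 end in a complete one. Among these, MT-ATP8 and MT-ND4L end inside the gene that follows them, so theirs are ends of reading frames only. The last 18 annotated bases of the most and the least reduced mRNA of either kind in the polysome comparison are given. Capitals mark the last codon, or what there is of it. As annotated, MT-ND2 and MT-CYB end in an incomplete codon, and MT-ATP6 and MT-ND5 in a complete one. The last base of MT-ATP6 is also the first base of MT-CO3, so the annotation does not settle whether its mRNA ends in a complete codon.
MT-ND2 (chrM:5494-5511, plus strand): ttatactaataatcttaT
MT-CYB (chrM:15870-15887, plus strand): aaatactcaaatgggccT
MT-ATP6 (chrM:9190-9207, plus strand): ctgcacgacaacacaTAA
MT-ND5 (chrM:14131-14148, plus strand): ctactcctaatcacaTAA

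Gene counts came to 22171255 to 43118190 per library, the lowest in polysome FBL knockdown 2, and 14344 to 15910 genes had reads in polysome libraries against 18323 to 18440 in input. All 7 myeloid markers were above 1 CPM on average in input RNA, MPO lowest at 1.39 CPM. CPM is a count scaled to a common library total with TMM factors that correct for library make-up. Summed myeloid markers were at 1836 to 2084 CPM in polysome and 1364 to 1747 CPM in input libraries. NKG7 of the lymphoid markers (2.74 CPM) and ITGA2B of the erythroid and megakaryocyte markers (1.43 CPM) also averaged above 1 CPM in input RNA. Summed lymphoid markers were at 3.11 to 8.25 CPM in polysome and 3.05 to 3.67 CPM in input libraries, with CD3E, CD2 and MS4A1 at 0 throughout. Summed erythroid and megakaryocyte markers were at 1.79 to 7.04 CPM in polysome and 1.31 to 3.62 CPM in input libraries, with PF4 at 0 throughout. Summed epithelial and stromal markers were at 0 to 1.04 CPM in polysome and 0 to 1.39 CPM in input libraries, with EPCAM at 0 throughout. The targeted gene did not follow the labels. FBL (ENSG00000105202) stood at 499 and 165 CPM in polysome FBL knockdown 1 and 2, against 498 and 163 CPM in polysome WT 1 and 2, and at 253 and 84.2 CPM in input FBL knockdown against 250.0 and 88.1 CPM in input WT. It was lower in the libraries numbered 2 under both labels and not lower in those labelled FBL knockdown (log2 fold change 0.01, SE 0.69, adjusted p = 1 in polysome RNA and -0.01, SE 0.69, adjusted p = 1 in input RNA, edgeR). Directions between labels in what follows thus rest on the labels alone, which the FBL counts go against.

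Mitochondrially encoded RNA made up a few percent of the input libraries and less than 1% of every polysome library. The 13 mRNAs together took 0.157% and 0.638% of gene counts in polysome FBL knockdown 1 and 2 and 0.219% and 0.271% in polysome WT 1 and 2. In input RNA they took 3.93% and 3.77% in FBL knockdown 1 and 2 and 3.86% and 4.06% in WT 1 and 2. No polysome library came near an input library, and the input libraries lay close together. The 2 rRNAs took 0.0426% and 0.102% in polysome FBL knockdown 1 and 2 and 0.0562% and 0.0730% in polysome WT 1 and 2, against 1.30% and 1.25% in input FBL knockdown and 1.52% and 1.40% in input WT. The 95% Wilson interval of each of these shares reached at most 1.53% of the share to either side, which covers counting error only. On average mRNA was at 0.321% ± 0.216 in polysome and 3.91% ± 0.125 in input libraries, and rRNA at 0.0685% ± 0.0257 in polysome and 1.37% ± 0.116 in input libraries (SD over the 4 libraries of both labels). As sums over genes chosen for this account, class shares are given as a description, with no test. The part of library preparation in the rRNA shares was not tested.

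**Figure D1:**
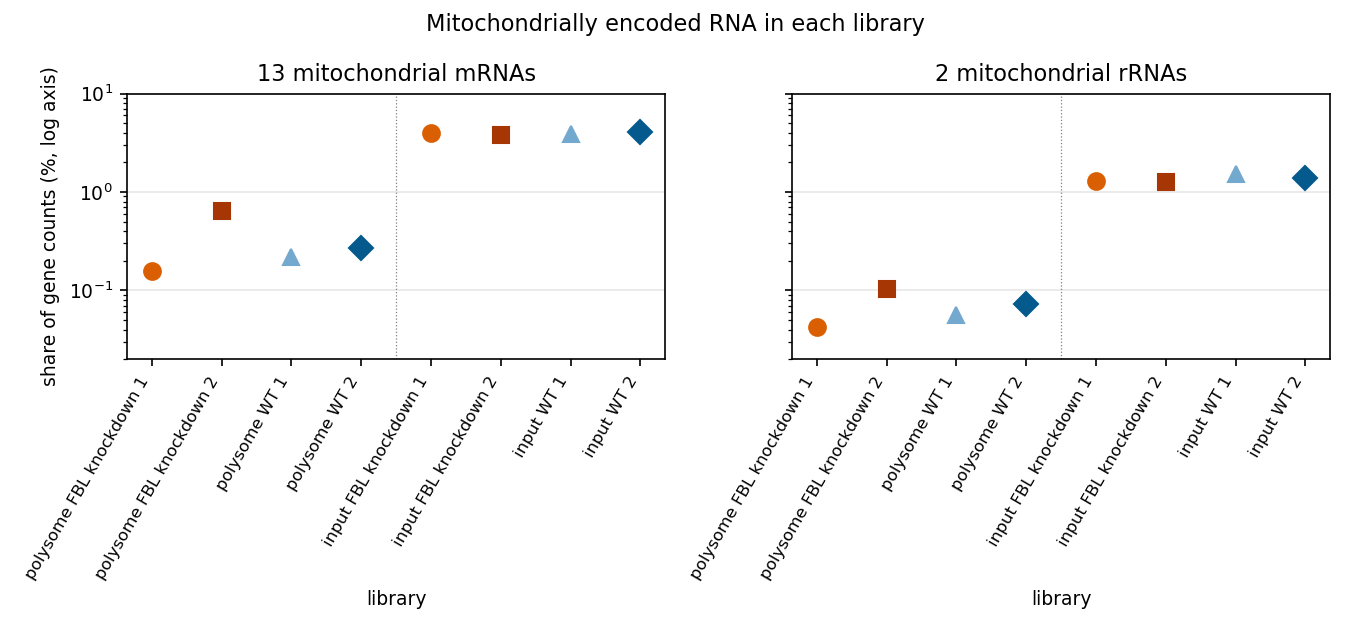
Share of gene counts (%, log axis) taken by the 13 mitochondrial mRNAs (left) and the 2 mitochondrial rRNAs (right) in each library, 1 point per library. The input libraries sit at 3.77% to 4.06% for mRNA, while the polysome libraries spread between 0.157% and 0.638%, with polysome FBL knockdown 2 highest in both panels.

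The tRNAs were practically not counted. Over all 8 libraries 1 read was assigned to them, to MT-TY in input WT 1, and the other 21 had none. In the 7 libraries without a tRNA read, a count of 0 allows a share of 6.96e-06% to 1.35e-05% of gene counts. These counts do not measure tRNA levels. The part in the zeros of the short, abutting genes described above, of ambiguous reads or of any other step was not tested. No tRNA passed the filter on low counts, so that 15 of the 37 genes entered the tests, the 13 mRNAs and both rRNAs.

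Polysome against input RNA asks at what level these transcripts were found in the polysome fractions relative to the input. All 15 genes were lower in polysome RNA (edgeR, adjusted p from 1.88e-06 to 0.0070), with log2 fold changes from -4.40 to -1.57. Over all 16503 genes tested, 3766 were lower, which is 22.8%, and 3306 were higher, which is 20.0%. The median log2 fold change was -3.10 for the 13 mRNAs and -0.22 for all genes tested. For each of the 15 genes every polysome library was below every input library, which held for 22.7% of all genes tested. The size of the reduction leaned on a single library. Without polysome FBL knockdown 2 all 15 were still called lower, but 9 of them by more than 1.5 times further, up to 1.88 times for MT-ATP8, whose log2 fold change became -2.74. The values without it were -3.54 for MT-CO1, -4.20 for MT-CO2, -3.50 for MT-CO3, -3.34 for MT-CYB, -4.76 for MT-ATP6, -4.51 for MT-ND1, -4.91 for MT-ND4 and -2.72 for MT-ND4L. Among 8368 genes that averaged at least 10 CPM in input RNA, MT-RNR1 had the third lowest polysome-to-input ratio and MT-ND2 and MT-ND4 came next, while MT-ND5, the member least reduced, was at place 274. Over all 16503 genes tested, which include many of low input level, these 4 genes were at places 660, 714, 718 and 2638. Levels below are TMM-scaled CPM, and fold changes are on the log2 scale.

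The ribosomal RNAs were among the most reduced members. MT-RNR1, the 12S rRNA of the small mitochondrial ribosomal subunit (ENSG00000211459, chrM:648-1601), had 33.3 and 95.5 CPM in polysome FBL knockdown, 55.0 and 88.7 CPM in polysome WT, 1443 and 1249 CPM in input FBL knockdown and 1714 and 1346 CPM in input WT. The log2 fold change in polysome against input RNA was -4.40 (SE 0.31, adjusted p = 3.7e-06). MT-RNR2, the 16S rRNA of the large subunit (ENSG00000210082, chrM:1671-3229), had 424 and 999 CPM in polysome FBL knockdown, 571 and 732 CPM in polysome WT, 10481 and 10333 CPM in input FBL knockdown and 12179 and 11266 CPM in input WT. For this rRNA the log2 fold change was -4.02 (SE 0.23, adjusted p = 1.88e-06). Polysome and input libraries did not overlap for either rRNA, while the polysome libraries labelled FBL knockdown lay on either side of those labelled WT. The ratio of MT-RNR2 to MT-RNR1 counts, which no scaling touches, was 12.7 and 10.5 in polysome FBL knockdown and 10.4 and 8.26 in polysome WT, against 7.26 and 8.27 in input FBL knockdown and 7.10 and 8.37 in input WT, so that polysome WT 2 lay within the input range and the other 3 polysome libraries above it.

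Of the 7 mRNAs for complex I, the NADH dehydrogenase, some were as reduced as the rRNAs and others far less. MT-ND2, a core membrane subunit (ENSG00000198763, chrM:4470-5511), had 143 and 431 CPM in polysome FBL knockdown, 191 and 229.5 CPM in polysome WT, 4768 and 4472 CPM in input FBL knockdown and 5049 and 4492 CPM in input WT. The log2 fold change came to -4.26 (SE 0.29, adjusted p = 3.3e-06). MT-ND4, a proton-pumping subunit (ENSG00000198886, chrM:10760-12137), had 133 and 538 CPM in polysome FBL knockdown, 195 and 267 CPM in polysome WT, 5499 and 5309 CPM in input FBL knockdown and 5038 and 5113 CPM in input WT, a log2 fold change of -4.23 (SE 0.36). Both mRNAs were at a small part of their input level in each lysate. MT-ND1 (chrM:3307-4262) and MT-ND3 (chrM:10059-10404), 2 further membrane subunits, had log2 fold changes of -3.92 (SE 0.32) and -3.60 (SE 0.31).

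MT-ND5, another proton-pumping subunit (ENSG00000198786, chrM:12337-14148), was the least reduced member. It had 73.8 and 152 CPM in polysome FBL knockdown, 162 and 184 CPM in polysome WT, 378 and 456 CPM in input FBL knockdown and 403 and 420.0 CPM in input WT. Its log2 fold change was -1.57 (SE 0.19, adjusted p = 8.6e-05). MT-ND4 and MT-ND5 are neighbours apart from 3 tRNAs, yet the ratio of MT-ND4 to MT-ND5 counts was 1.80 and 3.54 in polysome FBL knockdown and 1.20 and 1.45 in polysome WT, against 14.6 and 11.6 in input FBL knockdown and 12.5 and 12.2 in input WT. The polysome and input libraries did not overlap in this ratio.

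MT-ND6 (ENSG00000198695, chrM:14149-14673) is the only one of the 13 mRNAs on the minus strand of the reference. It had 24.7 and 72.3 CPM in polysome FBL knockdown, 51.0 and 72.4 CPM in polysome WT, 476 and 524 CPM in input FBL knockdown and 404 and 467 CPM in input WT, a log2 fold change of -3.10 (SE 0.28). The strand setting of the counts is not known, so reads of MT-ND6 and of the opposite strand's precursor over the same bases cannot be told apart. MT-ND4L, a small membrane subunit that overlaps MT-ND4, had 4.35 and 20.4 CPM in polysome FBL knockdown, 12.01 and 10.3 CPM in polysome WT, 42.4 and 45.4 CPM in input FBL knockdown and 49.9 and 44.8 CPM in input WT. Here the log2 fold change was -1.97 (SE 0.36, adjusted p = 0.0015).

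MT-CYB, cytochrome b of complex III (ENSG00000198727, chrM:14747-15887), had 104 and 388 CPM in polysome FBL knockdown, 158 and 186 CPM in polysome WT, 1348 and 1393 CPM in input FBL knockdown and 1279 and 1356 CPM in input WT. Its log2 fold change was -2.71 (SE 0.32, adjusted p = 8.2e-05). The reduction was thus between those of MT-ND5 and MT-ND2.

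The 3 core subunits of complex IV, cytochrome c oxidase, come next. Among mRNAs of higher level, polysome FBL knockdown 2 exceeded polysome FBL knockdown 1 most for MT-CO2 (5.48-fold) and MT-CO1 (5.01-fold). MT-CO3, at 4.06-fold, was close to MT-ND4 of complex I, at 4.04-fold. MT-CO1 (ENSG00000198804, chrM:5904-7445) had 241 and 1205 CPM in polysome FBL knockdown, 296 and 348 CPM in polysome WT, 3174 and 3553 CPM in input FBL knockdown and 2793 and 3409 CPM in input WT. MT-CO2 (ENSG00000198712, chrM:7586-8269) had 187 and 1022 CPM in polysome FBL knockdown, 276 and 345 CPM in polysome WT, 4476 and 4075 CPM in input FBL knockdown and 4352 and 4740.1 CPM in input WT. MT-CO3 (ENSG00000198938, chrM:9207-9990) had 457 and 1852 CPM in polysome FBL knockdown, 604 and 834 CPM in polysome WT, 6124 and 5858 CPM in input FBL knockdown and 6636 and 7281 CPM in input WT. For each of them the second polysome FBL knockdown library was the highest polysome library and the first the lowest. Their log2 fold changes in polysome against input RNA were -2.74 (SE 0.38), -3.35 (SE 0.41) and -2.83 (SE 0.34).

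Of the 2 ATP synthase mRNAs, MT-ATP6, the membrane subunit of the proton channel (ENSG00000198899, chrM:8527-9207), had 106 and 388 CPM in polysome FBL knockdown, 158 and 180.2 CPM in polysome WT, 3839 and 3432 CPM in input FBL knockdown and 3694 and 3559.7 CPM in input WT. Its log2 fold change was -4.15 (SE 0.33). MT-ATP8, the small subunit of the same complex, had 5.18 and 31.6 CPM in polysome FBL knockdown, 8.42 and 14.2 CPM in polysome WT, 42.9 and 62.5 CPM in input FBL knockdown and 42.8 and 55.5 CPM in input WT. Its log2 fold change was -1.83 (SE 0.44, adjusted p = 0.0070). The cell carries both reading frames on a single mRNA, and the same holds for MT-ND4L and MT-ND4. The partners of each pair were counted at very different levels and with different reductions, so their counts cannot both follow the shared mRNA. Only 161 bases of MT-ATP8 lie outside MT-ATP6, so counts of the short partner rest on few positions.

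**Figure D2:**
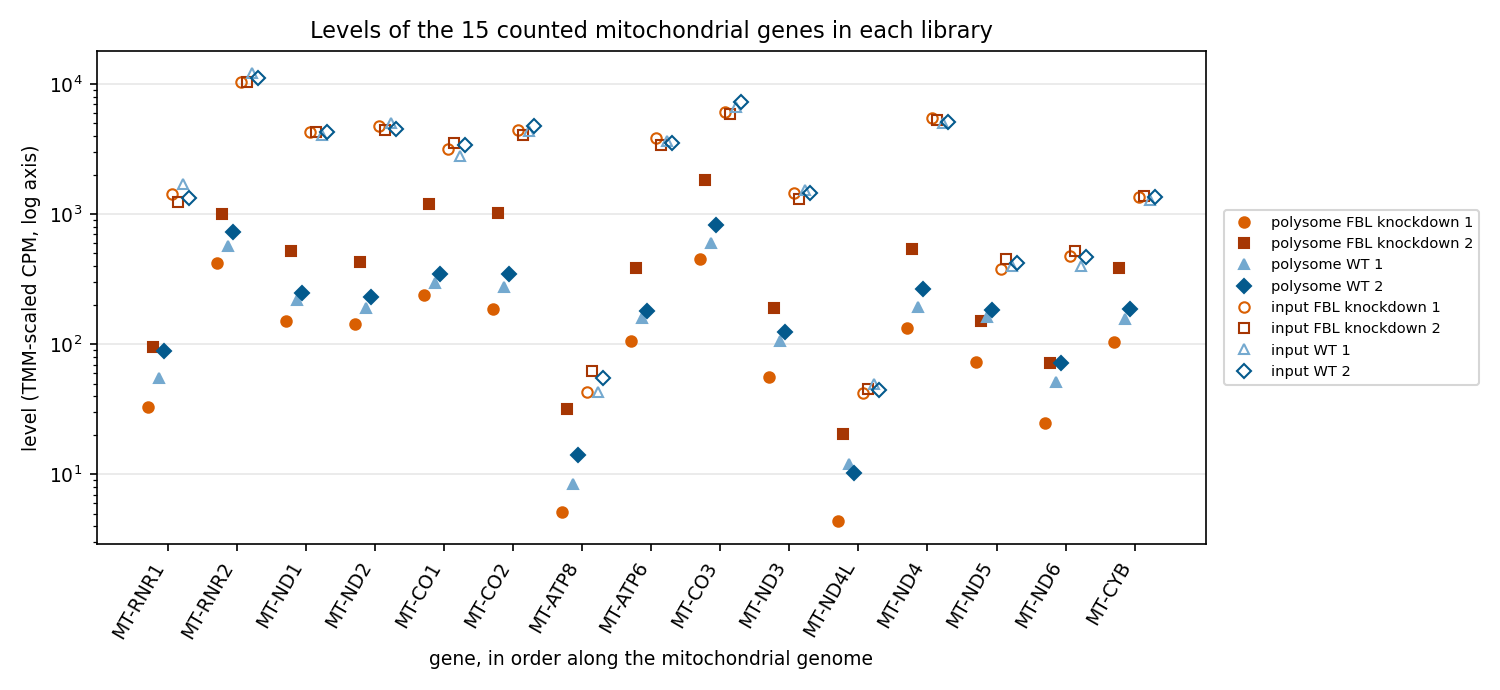
Level of the 15 counted mitochondrial genes (TMM-scaled CPM, log axis) in each library, with polysome libraries as filled and input libraries as open symbols, in genome order. Every polysome point lies below every input point of its gene, and the gap is smallest for MT-ND5, MT-ATP8 and MT-ND4L.

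**Figure D3:**
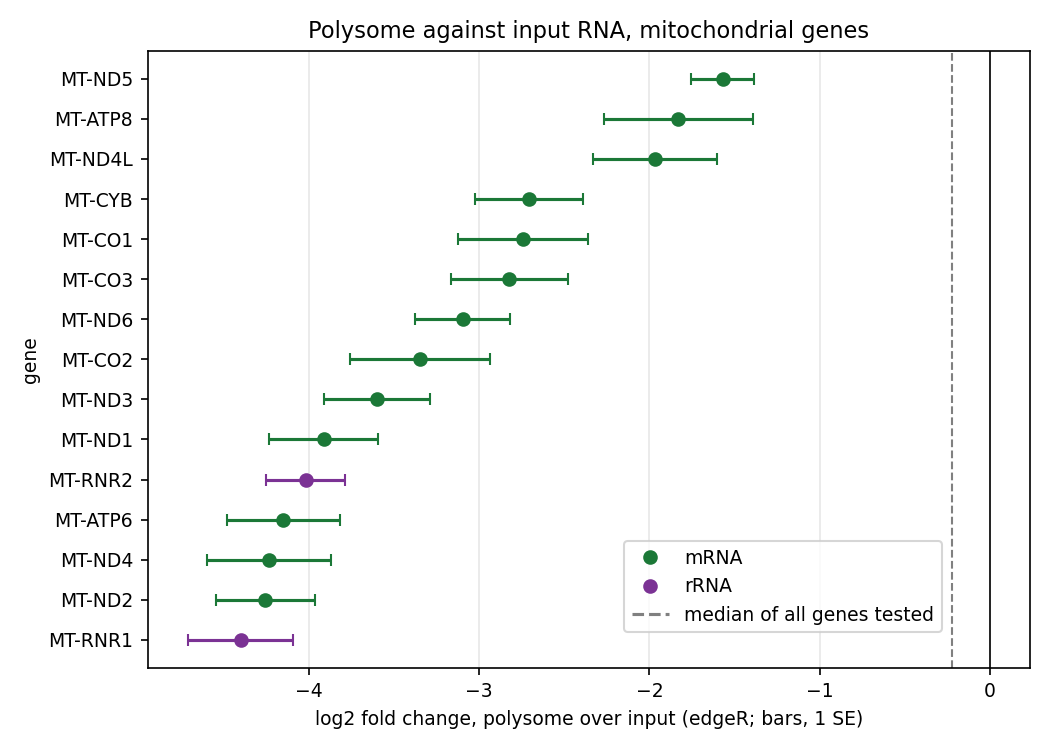
Log2 fold change of polysome over input RNA for the 15 genes (edgeR, bars 1 SE), sorted. Values run from -4.40 for MT-RNR1 to -1.57 for MT-ND5, and the dashed line marks the median of all genes tested at -0.22.

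Counts of the members therefore were not reduced in equal measure, and the order among mRNAs was similar in each lysate. Ranked by polysome level as a percentage of the input level, MT-ND1, MT-ND2, MT-ND4 and MT-ATP6 took the 4 lowest of 13 places in each of the 4 lysates. MT-ND5, MT-ATP8 and MT-ND4L took the 3 highest places in 3 lysates. The places of MT-ATP8 and MT-ND4L carry the limit on their counts given above. In lysate FBL knockdown 2 MT-CO1, at 33.9%, ranked above MT-ND5, at 33.3%. MT-ND5 kept 19.5% and 33.3% of its input level in lysates FBL knockdown 1 and 2 and 40.2% and 43.8% in WT 1 and 2. MT-ND2 kept 2.99% and 9.65% in FBL knockdown 1 and 2 and 3.78% and 5.11% in WT 1 and 2. The lowest value for MT-ND5 in any lysate was above the highest value for MT-ND2.

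As shares of all mitochondrial mRNA counts, which no scaling between libraries touches, 6 mRNAs were higher in all 4 polysome libraries than in any input library, 4 were lower and 3 overlapped. MT-ND5 made up 4.83% ± 1.98 of mitochondrial mRNA counts in polysome and 1.16% ± 0.109 in input libraries, and MT-CO3 26.6% ± 1.22 in polysome and 18.1% ± 1.43 in input libraries (SD over the 4 libraries of both labels). MT-ATP8, MT-ND4L, MT-CYB and MT-CO1 were the others with a higher share, MT-ATP8 and MT-ND4L with the same limit on their counts. On the lower side, MT-ND4 made up 8.14% ± 0.423 in polysome and 14.7% ± 0.702 in input libraries, and MT-ND2 7.54% ± 0.901 in polysome and 13.2% ± 0.861 in input libraries, joined by MT-ATP6 and MT-ND1. MT-CO2, MT-ND3 and MT-ND6 overlapped between the fractions. The rRNA-to-mRNA ratio of counts was 0.272 and 0.160 in polysome FBL knockdown and 0.257 and 0.270 in polysome WT, against 0.332 and 0.333 in input FBL knockdown and 0.393 and 0.344 in input WT, lower in all 4 polysome libraries.

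**Figure D4:**
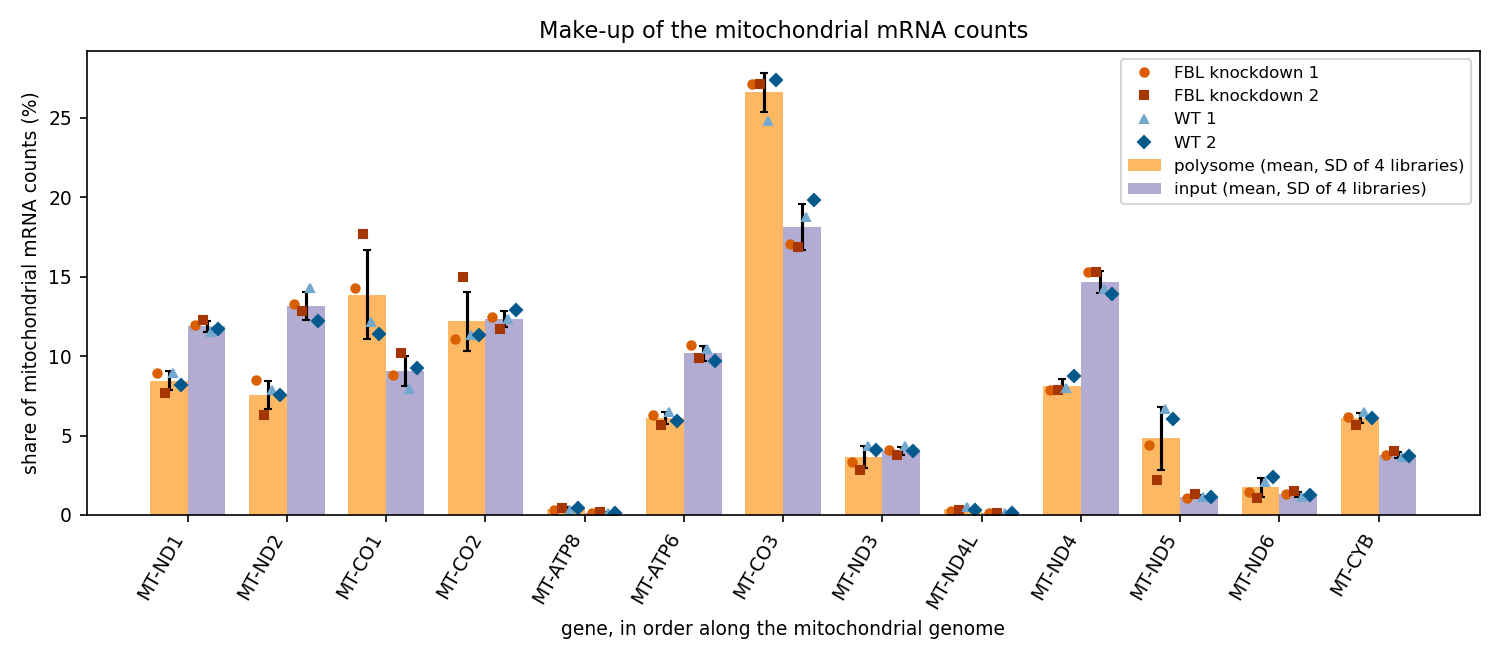
Share of mitochondrial mRNA counts (%) held by each mRNA in polysome and input libraries; bars are means and error bars SDs over the 4 libraries of a fraction, and points are single libraries. MT-CO3, MT-CO1, MT-CYB and MT-ND5 hold more of the polysome counts than of the input counts, and MT-ND1, MT-ND2, MT-ATP6 and MT-ND4 less.

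Level per length was compared in input RNA, as CPM per kb of full gene length, bases shared with a neighbour included. It was highest for MT-CO3 (8258.5 ± 799.9), MT-RNR2 (7097 ± 544) and MT-CO2 (6448 ± 404), neighbours in this order whose SDs overlap, and lowest for MT-ND4L (154 ± 10.6), MT-ND5 (229 ± 18.1) and MT-ATP8 (246 ± 47.1, SD over the 4 input libraries). On full gene length, MT-ND5 and MT-ATP8 did not differ beyond their spread in this order. Leaving out the 46 bases that MT-ATP8 shares with MT-ATP6 would raise its value. In polysome RNA MT-CO3 also led, at 1195 ± 803 CPM per kb, and MT-ND4L was again lowest, at 39.6 ± 22.3. Across the 13 mRNAs the log2 fold change in polysome against input RNA ran against the input level per length, with a Spearman rho of -0.68, against -0.07 for gene length and 0.02 for GC content. These are descriptions over 13 genes of the same genome, which share libraries and precursors, and the input level enters both measures of the first. They include MT-ATP8 and MT-ND4L, whose counts differ from those of the partners on the same mRNAs. Both genes combine a low input level per length with a small reduction, and rho without them was not computed. By annotated 3′ end, the 6 mRNAs with an incomplete last codon had a median log2 fold change of -3.76 (range -4.26 to -2.71). The 7 with a complete one, MT-ATP6 among them, had a median of -2.74 (range -4.15 to -1.57), so that the ranges overlap. These 7 include MT-ATP8 (-1.83) and MT-ND4L (-1.97), whose annotated ends lie inside mRNAs shared with MT-ATP6 and MT-ND4. Both were less reduced than that median, which was not computed without them.

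Carry-over differed between the polysome libraries far more than the input did. As a percentage of the input share in the same lysate, mitochondrial mRNA in polysome RNA was at 3.99% and 16.9% in lysates FBL knockdown 1 and 2 and at 5.66% and 6.66% in WT 1 and 2. The rRNA stood at 3.27% and 8.16% in FBL knockdown 1 and 2 and at 3.70% and 5.23% in WT 1 and 2. Both classes gave the lysates the same order, with FBL knockdown 1 lowest, then WT 1, WT 2 and FBL knockdown 2. The spread from lowest to highest was 4.24-fold for mRNA and 2.50-fold for rRNA. Single genes spanned 2.36-fold to 6.10-fold among the 4 polysome libraries and 1.06-fold to 1.46-fold among the 4 input libraries.

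The library labelled polysome FBL knockdown 1 was the lowest polysome library for all 15 genes. Polysome FBL knockdown 2 was the highest for 13 of 15. The exceptions were MT-ND5, where polysome FBL knockdown 2 lay below both WT libraries, and MT-ND6, where it lay between them. The share of all genes tested with such an order was not counted, so the order is not shown to be particular to these genes. Polysome FBL knockdown 2 was set against polysome FBL knockdown 1 next. Its excess over polysome FBL knockdown 1 differed by gene. It was 6.10-fold for MT-ATP8, 5.48-fold for MT-CO2, 5.01-fold for MT-CO1 and 4.06-fold for MT-CO3, but 3.02-fold for MT-ND2, 2.36-fold for MT-RNR2 and 2.06-fold for MT-ND5. Polysome FBL knockdown 2 was also the shallowest library and had the fewest genes with reads, 14344, and the part of either in this excess was not tested.

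Library number went with the polysome level under both labels. Polysome library 2 was above polysome library 1 for 15 of 15 genes among those labelled FBL knockdown. Among those labelled WT this held for 14 of 15, the exception being MT-ND4L. As a percentage of the input level, MT-CO1 (10.6% in WT 1, 10.2% in WT 2) and MT-ND4L (24.1% and 23.1%) were lower in lysate WT 2. In input RNA library 2 was the higher for 6 of 15 genes under FBL knockdown and 9 of 15 under WT. The libraries numbered 2 are also those with the lower FBL counts. The labels give the number no meaning beyond a replicate, and numbers were not tested against each other. How many of all genes tested had library 2 above library 1 was not counted either.

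**Figure D5:**
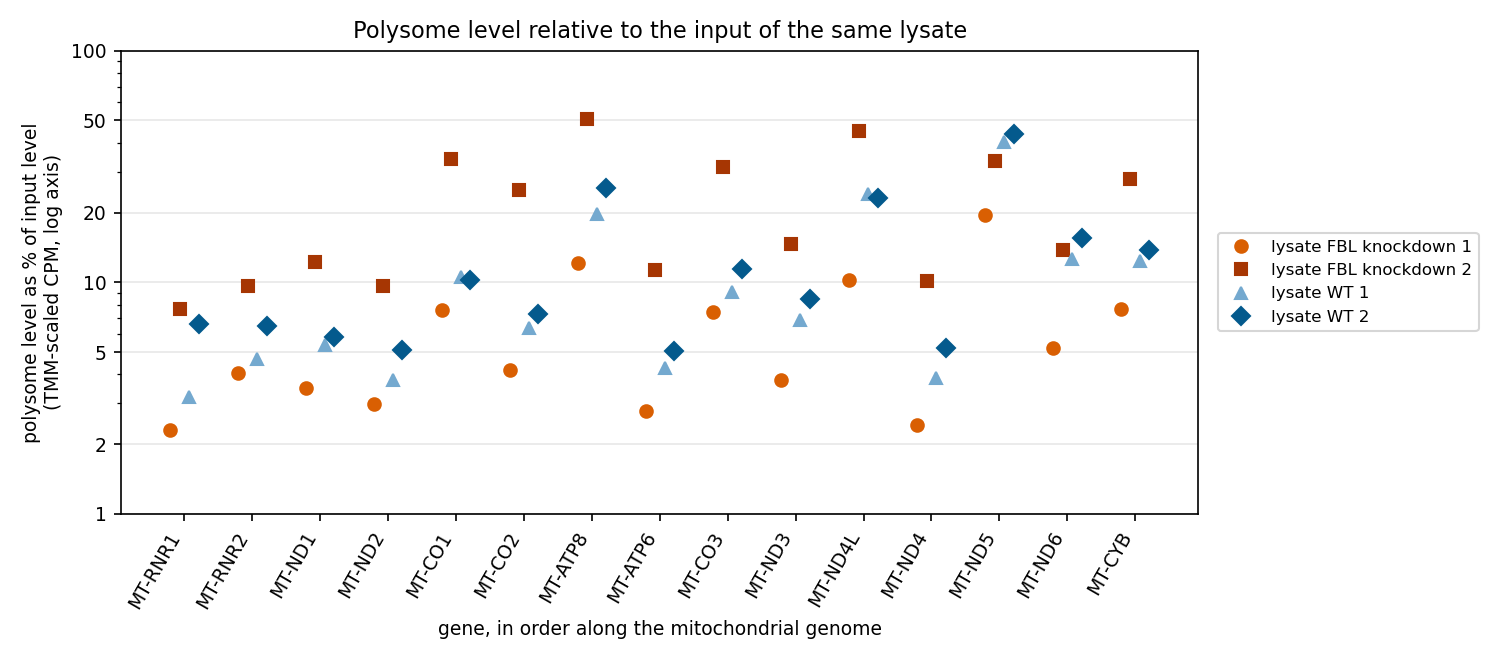
Polysome level as a percentage of the input level of the same lysate (TMM-scaled CPM, log axis) for the 15 genes, 1 point per lysate. Lysate FBL knockdown 1 is lowest for every gene, and FBL knockdown 2 is highest for all but MT-ND5 and MT-ND6.

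Noncoding RNAs of the nucleus and cytosol did not share this order of the lysates. NEAT1, a nuclear noncoding RNA that scaffolds paraspeckles, kept 8.20% and 6.44% of its input level in lysates FBL knockdown 1 and 2 and 14.7% and 13.2% in WT 1 and 2, so that the lysate with the highest mitochondrial carry-over had the lowest NEAT1 carry-over. Its log2 fold change in polysome against input RNA was -3.32 (SE 0.14). MALAT1, a noncoding RNA of nuclear speckles, stood at 5.21 and 2.22 CPM in polysome FBL knockdown and 13.5 and 304 CPM in polysome WT, against 24.7 and 23.2 CPM in input FBL knockdown and 28.8 and 28.2 CPM in input WT. A single library, polysome WT 2, held nearly all of its polysome reads. RN7SL2, an RNA of the signal recognition particle with near-identical copies and thus an uncertain count, averaged 0.567 ± 0.760 CPM in polysome and 20.2 ± 2.57 CPM in input libraries. RN7SL1, RN7SK, RMRP and RPPH1 had no reads in any library.

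Knockdown against control asks whether these RNAs differed by label. In input RNA none of the 15 genes was called between libraries labelled FBL knockdown and WT, with log2 fold changes from -0.22 for MT-CO3 to 0.20 for MT-ND6 and an SE of 0.26 to 0.59 (edgeR). None had an unadjusted p under 0.05, and DESeq2 and limma-voom called none either. Over all 16503 genes 0 were called, which is 0%, with 744 at an unadjusted p under 0.05, and DESeq2 called 65 and limma-voom 3. Input libraries of the labels did not overlap for 5 of the 15 genes, 2 with both FBL knockdown libraries above and 3 with both below. Over all genes tested these shares were 21.1% and 20.3%, so that the members' count was no higher than the background. MT-RNR2 averaged 10407 ± 104 CPM in input FBL knockdown and 11722 ± 646 CPM in input WT (SD, n = 2 each). The fold change between them was -0.17 on the log2 scale (SE 0.29, edgeR adjusted p = 1). In these bulk libraries fewer cells with mitochondrial RNA and less of it per cell cannot be told apart, and a change common to all transcripts would not be seen.

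In polysome RNA again no mitochondrial gene was called between the labels, against 0.879% of all genes tested, or 145 of 16503, of which 41 (0.248%) were higher and 104 (0.630%) lower. Of the 15 genes 2 had an unadjusted p under 0.05, against 18.1% of all genes (2987). DESeq2 and limma-voom called none of the 15, and 1203 and 297 of all genes. MT-CO1 averaged 723 ± 682 CPM in polysome FBL knockdown and 322 ± 36.9 CPM in polysome WT (SD, n = 2 each). Between labels this was 1.17 on the log2 scale (SE 0.52, edgeR adjusted p = 0.270). Its FBL knockdown libraries lay on either side of the WT pair. MT-ND5 averaged 113 ± 55.1 CPM in polysome FBL knockdown and 173 ± 15.5 CPM in polysome WT, or -0.62 on the log2 scale (SE 0.26, edgeR adjusted p = 0.245). It was the only 1 of the 15 whose polysome libraries did not overlap between the labels, where 23.6% of all genes had both FBL knockdown libraries below both WT libraries and 15.4% had both above. The result turned on single libraries. Without polysome FBL knockdown 1, 12 of the 15 genes were called higher in the remaining library labelled FBL knockdown, against 2.21% of all genes tested. Without polysome FBL knockdown 2, 7 were called lower, against 0.162% of all genes, and MT-CO1 turned to -0.42 on the log2 scale. In each case the lone library was assumed to vary like the others.

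The difference between the polysome-to-input change in FBL knockdown and in WT asks whether carry-over itself differed by label. No mitochondrial gene and none of the 16503 genes was called (edgeR, 0%). The log2 differences ran from -0.64 for MT-ND5 (SE 0.36, adjusted p = 0.780) to 1.05 for MT-CO1 (SE 0.72, adjusted p = 0.810). No member had an unadjusted p under 0.05, where 1046 of all genes had one, and DESeq2 called 4 genes and limma-voom 0, none of them mitochondrial. Without polysome FBL knockdown 1, 8 of the 15 genes were called higher, against 0.0621% of all genes tested.

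Nuclear-encoded genes that make, process and translate mitochondrial RNA were set beside the members. Of 78 such genes, all tested, 24 were higher and 30 lower in polysome than in input RNA, which is 30.8% and 38.5% against 20.0% and 22.8% of all genes, and their median log2 fold change was -0.34 against -0.22. Among those higher, TSFM, an elongation factor of mitochondrial translation, averaged 162 ± 14.5 CPM in polysome and 65.4 ± 3.08 CPM in input libraries, and its partner TUFM 1012 ± 90.1 CPM in polysome and 474 ± 42.2 CPM in input libraries (SD over 4 libraries). HSD17B10, a subunit of the enzyme that cuts the 5′ ends of mitochondrial tRNAs, had a log2 fold change of 1.18 (SE 0.10), and YBEY, an endoribonuclease of mitochondrial ribosome maturation, of 1.14 (SE 0.14). Among those lower, log2 fold changes were -1.93 (SE 0.22) for METTL15, a 12S rRNA methyltransferase, and -1.70 (SE 0.26) for FASTKD3, of a family of mitochondrial RNA-binding proteins. They were -1.67 (SE 0.31) for the initiation factor MTIF3 and -1.29 (SE 0.24) for the tRNA modification enzyme MTO1. None of the 78 was called between the labels in input or in polysome RNA.

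By role, 4 of 14 translation genes were higher and 8 lower in polysome RNA, 8 of 19 rRNA modification and ribosome assembly genes were higher and 5 lower, and 6 of 18 RNA processing and decay genes were higher and 7 lower. Of 13 tRNA modification genes 1 was higher and 6 lower, of 8 transcription genes 2 were higher and 3 lower, and of 6 DNA maintenance genes 3 were higher and 1 lower. Unlike the mitochondrially encoded genes, which all went one way, the nuclear-encoded lists thus had members on both sides.

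Nuclear copies of mitochondrial genes can take reads from the originals, since the nuclear genome holds inserted stretches of mitochondrial DNA. By symbol there were 417 such pseudogenes, of which 21 had a read in any library and 7 were tested. Together they took 0.985% and 0.972% of the count of the mitochondrial genes in polysome FBL knockdown and 1.11% and 1.13% in polysome WT, against 0.686% and 0.678% in input FBL knockdown and 0.668% and 0.679% in input WT. MTATP6P1 held most of it, at 32.2 ± 20.0 CPM in polysome and 275 ± 6.99 CPM in input libraries, with a log2 fold change of -3.13 (SE 0.32), against -4.15 for MT-ATP6. MTND2P28, at 8.69 ± 4.13 CPM in polysome and 39.8 ± 2.64 CPM in input libraries, had -2.21 (SE 0.31), against -4.26 for MT-ND2. MTND1P23 and MTCO1P12 were also lower in polysome RNA. MTND5P11 had 142 and 56 reads in polysome WT 1 and 2, none in either polysome FBL knockdown library and 1 read in all input libraries together, against 5602 and 6681 MT-ND5 reads in polysome WT 1 and 2. Where the counting split reads between a gene and its copy, both counts are uncertain.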

How the data were processed

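The authors deposited raw read counts per Ensembl gene, 1 file per library. The submitters' processing notes name Trimmomatic 0.38, Bowtie2 without a version, HTSeq 0.11.2 and GRCh38. They name neither a strand setting nor an annotation release. Bowtie2 aligns without splitting reads at introns, which nuclear genes have and mitochondrial genes lack; the effect on mitochondrial shares was not tested. File lines that are not genes, 13.2% to 15.0% of the reads listed, stayed out of library sizes and tests. Of the 58395 identifiers, 58275 are in GENCODE release 29, which gave positions. EdgeR 4.0.16 under R 4.3.3 fitted the counts (quasi-likelihood test, TMM, filterByExpr) over all 8 libraries with a term per group, which left 4 residual degrees of freedom. P-values were adjusted over all 16503 genes tested by the Benjamini-Hochberg method, with calls under 0.05. The SE is the absolute log2 fold change divided by the root of the F statistic. The fit was tested on simulated counts with known changes between polysome and input only, drawn with the spread of the same fit. Changes between labels were not simulated. Alternatives were DESeq2 1.42.0, limma-voom (limma 3.58.1), other scalings and filters, blocks, and each library left out.

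The members and gene lists were chosen with earlier results of these data known. Named were all 13 mRNAs, both rRNAs, the tRNA with a read (MT-TL1 only for its sequence), FBL, 7 noncoding RNAs, at most 4 listed nuclear genes a direction (at least 10 CPM in the higher fraction) and the 5 nuclear copies with the highest CPM. Cell type markers are in the report. Polysome and input libraries of the same number and label were taken as 1 lysate, since both were drawn from each lysate per the labels' protocols. Their deviations from the group means correlated at 0.36 (FBL knockdown) and 0.31 (WT) over 8159 genes.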

Additional observations from a re-analysis of the deposited data

How the results depend on the processing

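The count of 15 mitochondrial genes lower in polysome than in input RNA came out at 15 under each of the 16 alternatives, with adjusted p at most 0.030, and the lysate as a replicate block changed none of these calls. Mean log2 ratios of class shares, -3.81 for mRNA and -4.39 for rRNA, ranged from -4.23 to -3.54 and from -4.65 to -4.21 with a lysate left out, and were -3.55 and -4.13 with TMM-scaled library sizes, an alternative chosen after seeing the data. Between labels in polysome RNA the count of 0 became 10 with no filter on low counts (9 higher, 1 lower) and 0 to 12 with a library left out. For the difference of polysome-to-input changes it became 7 with no filter and 0 to 8 with a library left out. The cause of the change with no filter was not tested. With a library left out, log2 fold changes between labels in polysome RNA ran from -0.67 to 1.20 for MT-ATP6, -0.73 to 1.17 for MT-CYB, -0.64 to 1.17 for MT-ND1, -1.05 to 0.74 for MT-ND3 and -1.36 to 0.87 for MT-ND4L. Without polysome FBL knockdown 2 the direction turned for 12 of the 15 genes, MT-CO1 (-0.42 to 1.91), MT-CO2 (-0.74 to 1.72), MT-CO3, MT-ATP8, MT-ND2, MT-ND4 and MT-RNR2 being the others. MT-ND5 alone kept its direction with any library left out. In input RNA the count stayed at 0 in all alternatives. Between labels, libraries have nothing but a number in common. With the number as a replicate block no mitochondrial gene was called between labels (MT-ND5 in polysome RNA had a log2 fold change of -0.68, adjusted p = 0.053), while calls over all genes went to 66 in input and 1053 in polysome RNA. Deviations of same-numbered libraries correlated across labels at 0.47 in input and 0.18 in polysome RNA. Over all alternatives, calls among all genes ran from 5537 to 7763 for polysome against input, 0 to 83 between labels in input, 0 to 1455 in polysome RNA and 0 to 55 for the difference. With 2 libraries a group, changes between labels as large as the spread between polysome libraries could not be told from it.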
